A study of Mus musculus with 6 samples.

Results

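The 10 genes described here are imprinted genes that are commonly grouped as a growth-regulating network, namely H19, Meg3, Grb10, Dlk1, Peg3, Plagl1, Mest, Ndn, Peg10 and Sgce. They were found as the rows of the deposited count table whose Ensembl identifier corresponds to these symbols, and each symbol matched 1 of the 54232 genes in the table. The table holds RNA-seq of primary muscle cells of the mouse oviduct on day 2 (D2) of pregnancy, from 3 WT libraries (WT1 to WT3) and 3 libraries of a Pbrm1 knockout (cKO1 to cKO3). Pbrm1 encodes a subunit of the PBAF form of the SWI/SNF chromatin remodeling complex, and the comparison asks how its loss changes transcription in the muscle layer that carries the embryo. All females were 8 to 12 weeks old and mated, and every library came from digested oviducts whose cells were filtered, plated in serum for 4 h and then for a further 2 h.

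In the study's conditional knockout (Pbrm1 cKO), floxed Pbrm1 is deleted by a Cre placed in the progesterone receptor gene (PR-IRES-cre). This Cre acts in every cell that expresses the receptor, so the deletion is not restricted to muscle and precedes pregnancy. The labels call the control genotype WT, whereas a supplementary legend of the study names floxed females without Cre. Nothing in the labels ties a library to a single animal or to a pool, so the p-values below measure the spread between these libraries, which may be partly technical. Pbrm1 itself fell from 175 ± 7.09 CPM (CPM are counts scaled to a common library total, mean ± SD, n = 3) in WT to 45.6 ± 4.39 CPM (SD, n = 3) in the knockout, or 26.0% of the WT mean.

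In an imprinted gene, a DNA methylation mark set in the egg or the sperm leaves 1 parental copy silent, so that RNA is made from the other. Imprinted genes lie in clusters under shared control regions, and many of them are high in the fetus and placenta, where paternally expressed members tend to promote growth and maternally expressed members tend to restrain it, and fall in level after birth. The counts here sum both parental copies, all promoters and all isoforms of a gene, so they hold no information on imprinting itself. In bulk RNA, fewer cells of a type and less RNA per cell cannot be told apart.

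All 10 genes passed the filter on low counts, and 7 differed between the genotypes by edgeR's quasi-likelihood test at a Benjamini-Hochberg adjusted p under 0.05. Across all genes tested, 43.8% passed the same threshold. Sgce, a sarcoglycan gene, was the 1 member that rose, where 22.0% of all genes did. Dlk1, Peg10, Mest, Plagl1, H19 and Grb10 fell, against 21.8% of all genes. Meg3, Ndn and Peg3 did not pass the threshold. The median log2 fold change of the 10 genes was -0.29, beside 0.0016 for all genes tested, and the median size of their change was 0.34, beside 0.22. Dlk1 and Sgce moved by more than 1 on the log2 scale, which 6.48% of all genes did and passed the test. CPM ranges of the genotypes did not overlap for 6 of the 10 genes, as for 53.5% of all genes.

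**Figure D1:**
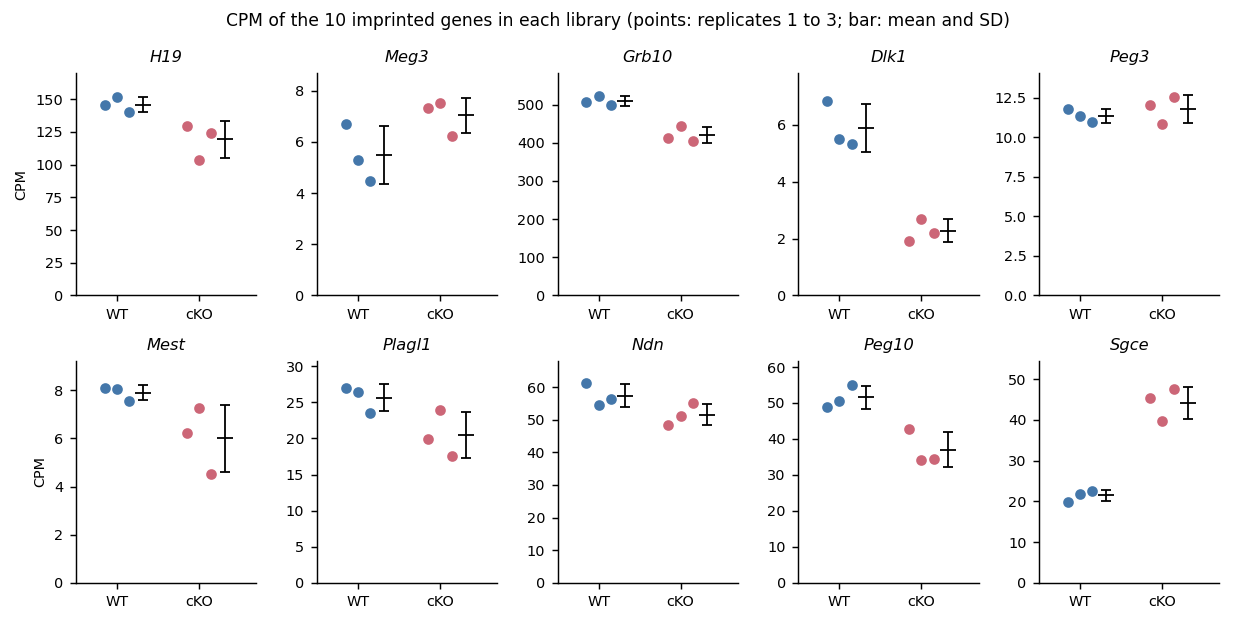
CPM of each of the 10 imprinted genes (y axis, from 0) in the 3 WT and 3 Pbrm1 cKO libraries, 1 point per library, with a bar for the mean and the SD. Sgce stands between 19.9 and 22.5 CPM in WT and between 39.7 and 47.5 CPM in the knockout, Dlk1 falls from at least 5.33 to at most 2.71 CPM, and the points of Meg3, Peg3, Plagl1 and Ndn overlap between the genotypes.

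Levels can be set side by side between genes only per length, as RPKM (CPM per kilobase of exon). In WT cells the 10 genes spanned from 59.3 ± 2.41 RPKM for H19 (SD, n = 3) to 0.303 ± 0.0622 RPKM for Meg3 (SD, n = 3). Grb10 lay next to H19 at 56.1 ± 1.33 RPKM (SD, n = 3), and the library ranges of these abundant genes overlapped. Ndn at 15.5, Peg10 at 7.73 and Plagl1 at 3.28 RPKM followed, each apart from its neighbours. Sgce at 2.02 and Mest at 2.00 RPKM could not be ordered, and Dlk1 at 1.04 and Peg3 at 0.853 RPKM came before Meg3. In the knockout Sgce stood at 4.16 ± 0.381 RPKM (SD, n = 3), above Plagl1 at 2.62 ± 0.407 RPKM (SD, n = 3). Dlk1 at 0.401 RPKM lay below Peg3 at 0.886 RPKM there and overlapped with Meg3 at 0.389 RPKM.

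**Figure D2:**
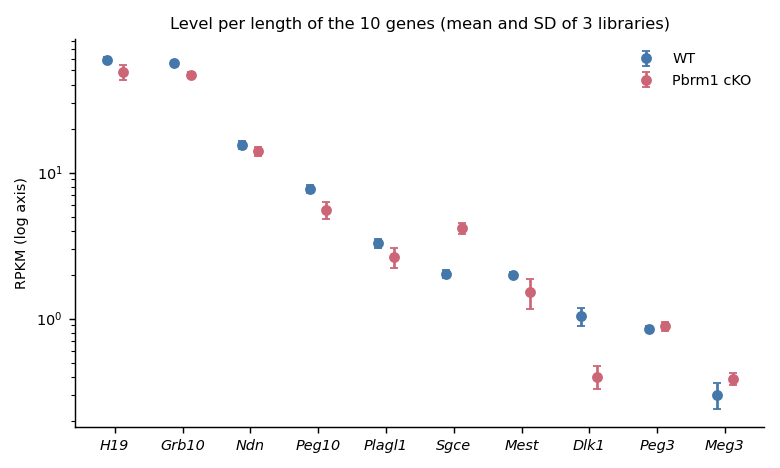
Level per length of the 10 genes in RPKM (log axis), as the mean and SD of 3 WT (blue) and 3 Pbrm1 cKO (red) libraries, ordered by the WT mean. H19 and Grb10 lead in both genotypes, Sgce passes Plagl1 in the knockout, and Dlk1 drops to the level of Meg3.

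Among the maternally expressed genes, H19 produces an abundant noncoding RNA and lies on chromosome 7 (positions 142575529 to 142578143, minus strand, annotated as lincRNA). It shares its imprinting control region and enhancers with Igf2, which encodes a fetal growth factor. H19 stood at 145, 152 and 140.2 CPM in WT1, WT2 and WT3, and at 129.7, 103 and 125 CPM in cKO1, cKO2 and cKO3. Every knockout library lay below every WT library, and cKO2 was the lowest. The log2 fold change was -0.29 with an SE of 0.075 (edgeR, adjusted p = 0.00888), from 1936 to 2843 counts per library.

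H19 is also the precursor of miR-675, and the mature sequences are given because this microRNA is the best-known product of its exons. They are from RefSeq (GRCm38.p6, minus strand of chromosome 7), with the seed, bases 2 to 8, in capitals.
miR-675-5p (chr7:142577112-142577133): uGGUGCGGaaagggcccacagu
miR-675-3p (chr7:142577078-142577099): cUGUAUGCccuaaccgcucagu
The 2 arms have different seeds. The miR-675 precursor has its own row in the table, with 0 counts in all 6 libraries. It overlaps H19 on the same strand over 84 bases, or 3.42% of the exon length of H19, and reads lying in both are dropped by the counting program's default. The mature microRNA was therefore not measured.

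Igf2, whose start lies 88.7 kb from that of H19, did not pass the filter. Its level was 0.295, 0.481 and 0.176 CPM in WT and 0.225, 0.106 and 0.515 CPM in the knockout, from 2 to 9 counts per library. At this depth 3 counts correspond to between 0.159 and 0.193 CPM, and the Igf2 libraries lay on both sides of this floor. Gm49394, a gene on the same strand with at most 1 count per library, overlaps 62.8% of the exon length of Igf2. Reads lying in both are dropped by the counting program's default, so the Igf2 row is a partial count and its level may be understated. H19, with Grb10, was the most abundant of the 10 genes per length. Cdkn1c, which encodes the growth-restraining CDK inhibitor p57 and lies 883 kb from H19, stood at 1.54, 1.87 and 0.937 CPM in WT and 2.81, 1.64 and 1.54 CPM in the knockout. The ranges overlapped, and the log2 fold change of 0.46 with an SE of 0.29 did not pass the test (edgeR, adjusted p = 0.225). Slc22a18, a membrane transporter gene of the same region, rose by a log2 fold change of 0.66 (edgeR, adjusted p = 0.0447) on 15 to 41 counts per library, a call that was lost with DESeq2 (adjusted p = 0.130), with no filter (0.0553), and without WT1 (0.183), WT2 (0.100), cKO1 (0.149) or cKO3 (0.0541).

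Grb10 encodes an adaptor protein that binds the activated insulin and IGF1 receptors and dampens their signal. It lies on chromosome 11 (11930508 to 12038683, minus strand) and is transcribed from the maternal copy outside neurons. Its level was 506, 523 and 499.7 CPM in WT, and 413, 443 and 404 CPM in the knockout. The genotypes did not overlap, with cKO2 the closest to WT. Grb10 fell to 82.5% of the WT mean, a log2 fold change of -0.28 with an SE of 0.045 (edgeR, adjusted p = 0.000101). With 6282 to 9782 counts per library it is the most deeply counted of the 10 genes and had the smallest SE.

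The genes for the receptors and substrates that meet Grb10 did not pass the test. Insr stood at a log2 fold change of -0.05 (adjusted p = 0.537), Igf1r at -0.08 (adjusted p = 0.337), Irs1 at -0.31 (adjusted p = 0.0785) and Irs2 at 0.16 (adjusted p = 0.130), all by edgeR. Igf1, a ligand of this pathway, fell by 0.29 on the log2 scale (edgeR, adjusted p = 0.00114). Ddc, the gene for aromatic amino acid decarboxylase beside Grb10, stood at 6.97, 5.51 and 6.62 CPM in WT and at 4.78, 4.40 and 5.47 CPM in the knockout. These ranges lay close, the highest knockout library standing just under the lowest WT library. Its log2 fold change was -0.38 (edgeR, adjusted p = 0.0370), and the call was lost with DESeq2 (adjusted p = 0.106) and without WT1 (0.133), WT3 (0.103), cKO1 (0.0926) or cKO2 (0.109).

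Dlk1 and Meg3 share a domain on chromosome 12 and stand on the same strand, with starts 88.2 kb apart. Dlk1 (109452823 to 109463336, plus strand) encodes a transmembrane protein with EGF-like repeats that resembles Notch ligands and holds back adipocyte differentiation, and it is expressed from the paternal copy. Dlk1 stood at 6.85, 5.51 and 5.33 CPM in WT, and at 1.91, 2.71 and 2.19 CPM in the knockout. Every knockout library lay well below every WT library, and cKO2 was the highest of the knockout. Dlk1 fell to 38.5% of the WT mean, a log2 fold change of -1.37 with an SE of 0.18 (edgeR, adjusted p = 1.06e-05), from 34 to 116 counts per library. Only 3.35% of all tested genes had a larger change in either direction.

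Meg3 (109541001 to 109571726, plus strand), a maternally expressed noncoding RNA known for growth restraint, stood at 6.68, 5.29 and 4.45 CPM in WT and at 7.31, 7.53 and 6.24 CPM in the knockout. WT1 lay above cKO3, so the ranges overlapped. The log2 fold change was 0.37 with an SE of 0.15 (edgeR, adjusted p = 0.0557). It passed the threshold with library-size scaling alone (adjusted p = 0.0454), with no filter on low counts (0.0460), without WT1 (0.0133) and without cKO3 (0.0349). The ratio of Meg3 to Dlk1 counts within a library, which does not depend on library size, was 0.974, 0.961 and 0.835 in WT and 3.82, 2.78 and 2.85 in the knockout. These counts are not per length, and the exons of Meg3 span 18089 bases beside 5657 for Dlk1. Per length, Meg3 at 0.389 RPKM and Dlk1 at 0.401 RPKM overlapped in the knockout.

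Sequences around the starts of Dlk1 and Meg3 are shown because these neighbours stood on opposite sides of no change. Each runs from 250 bases before to 50 bases after the start in RefSeq (GRCm38.p6, plus strand), 5′ to 3′, with CpG dinucleotides, the sites of DNA methylation, in capitals.
Dlk1 (chr12:109452573-109452872): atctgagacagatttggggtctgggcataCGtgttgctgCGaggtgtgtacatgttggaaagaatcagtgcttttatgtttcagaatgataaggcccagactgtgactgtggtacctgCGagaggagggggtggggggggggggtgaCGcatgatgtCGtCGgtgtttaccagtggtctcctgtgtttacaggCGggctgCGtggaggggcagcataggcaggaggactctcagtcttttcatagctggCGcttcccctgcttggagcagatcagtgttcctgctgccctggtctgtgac
Meg3 (chr12:109540746-109541045): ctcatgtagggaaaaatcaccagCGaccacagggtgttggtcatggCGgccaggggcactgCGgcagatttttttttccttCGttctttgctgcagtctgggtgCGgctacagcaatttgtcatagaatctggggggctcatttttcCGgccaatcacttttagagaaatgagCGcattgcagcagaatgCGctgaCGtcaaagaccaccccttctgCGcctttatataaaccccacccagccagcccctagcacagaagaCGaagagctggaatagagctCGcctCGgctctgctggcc
The Dlk1 window holds 9 CpG and the Meg3 window 13, beside a median of 7 over the 32851 RefSeq windows of the same length. The letters TATAAA, searched on both strands, occur 25 bases before the start of Meg3 on its own strand and, in overlapping letters, 29 bases before it on the opposite strand, whereas the Dlk1 window has no match. Of all windows, 13.6% hold this motif. A second RefSeq start of Meg3 (chr12:109545148-109545447) has 1 CpG in its window and no match to TATAAA.

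Rian, Mirg and Dio3, of the same domain, differed from Dlk1 in direction. Rian, the snoRNA host transcript downstream of Meg3, was at 38.6, 32.7 and 33.8 CPM in WT and at 44.8, 48.0 and 43.8 CPM in the knockout, a log2 fold change of 0.38 (edgeR, adjusted p = 0.000332). Mirg, the microRNA host at the far end, was at 4.61, 4.97 and 3.57 CPM in WT and at 6.35, 7.16 and 6.18 CPM in the knockout, a log2 fold change of 0.58 (edgeR, adjusted p = 0.00405). Neither gene overlapped between the genotypes, and both rose. Dio3, which encodes the deiodinase that inactivates thyroid hormone, stood at 0.945, 0.695 and 0.995 CPM in WT and at 3.26, 3.40 and 4.44 CPM in the knockout. Its log2 fold change of 2.06 with an SE of 0.23 (edgeR, adjusted p = 2.84e-06) was the largest among the tested genes of all the domains, on 13 to 69 counts per library. Rtl1, a retrotransposon-derived gene of the domain, had 2, 6 and 1 counts in WT and 0, 0 and 1 in the knockout, and was not tested. Of the 5 tested genes of the domain, Dlk1 fell, 3 rose and Meg3 did not pass the test, where 22.0% of all tested genes rose.

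**Figure D3:**
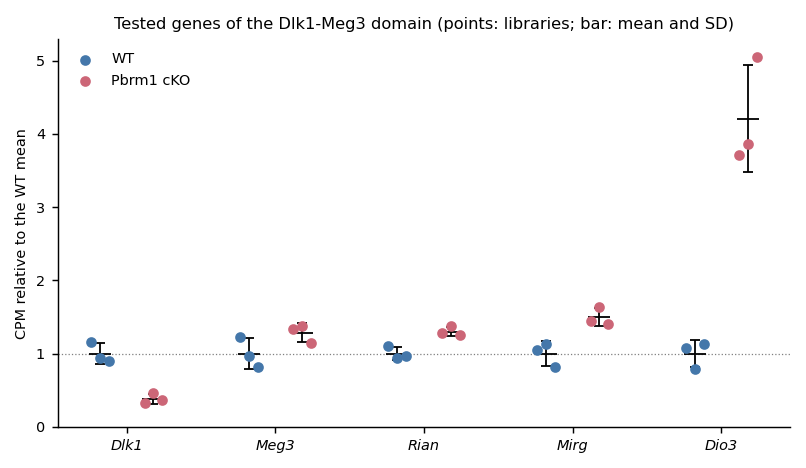
CPM of the 5 tested genes of the Dlk1-Meg3 domain divided by the WT mean of each gene (y axis), 1 point per library, with the mean and SD of 3 WT (blue) and 3 Pbrm1 cKO (red) libraries. Every Dlk1 point of the knockout lies below the WT points, whereas those of Rian, Mirg and Dio3 lie above them and WT1 of Meg3 lies among the knockout points.

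Peg10 and Sgce are both paternally expressed and start only 99 bases apart on opposite strands of chromosome 6. They moved in opposite directions in the knockout. Sgce (4674350 to 4747207, minus strand) encodes epsilon-sarcoglycan, which replaces alpha-sarcoglycan in the sarcoglycan complex of smooth muscle, and its level was 19.9, 21.9 and 22.5 CPM in WT and 45.3, 39.7 and 47.5 CPM in the knockout. The groups were far apart, with cKO2 nearest to WT. Sgce rose to 206% of the WT mean, a log2 fold change of 1.04 with an SE of 0.078 (edgeR, adjusted p = 2.85e-08), and 5.96% of all tested genes had a larger change in either direction.

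Peg10 (4747306 to 4760517, plus strand) is a gene derived from a retrotransposon and needed for the placenta. It stood at 49.0, 50.6 and 55.0 CPM in WT and at 42.8, 34.1 and 34.3 CPM in the knockout. No knockout library reached the WT range, and cKO1 came closest. Peg10 fell by 0.47 on the log2 scale with an SE of 0.084 (edgeR, adjusted p = 0.000478), to 71.9% of the WT mean. The ratio of Sgce to Peg10 counts within a library was 0.405, 0.433 and 0.410 in WT and 1.06, 1.17 and 1.39 in the knockout. These counts are not per length, and the exons of Sgce span 10612 bases beside 6667 for Peg10. Per length, Peg10 stayed above Sgce in the knockout, at 5.56 ± 0.747 beside 4.16 ± 0.381 RPKM (SD, n = 3 each).

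Further genes of the Peg10 and Sgce domain moved both ways. Pon2, a paraoxonase gene, was at 37.8, 37.9 and 37.9 CPM in WT and at 48.4, 41.8 and 47.6 CPM in the knockout, a log2 fold change of 0.28 (edgeR, adjusted p = 0.00246). Casd1, a sialic acid acetyltransferase gene whose start lies 146 kb from that of Sgce, had a log2 fold change of 0.16 (edgeR, adjusted p = 0.0294). That call was lost with DESeq2 (adjusted p = 0.105), with no filter (0.0831), and without WT1 (0.0974), WT2 (0.0720), WT3 (0.0535), cKO1 (0.0533) or cKO3 (0.0788). Tfpi2, a secreted protease inhibitor gene, fell from 16.6, 15.9 and 14.6 CPM in WT to 7.37, 13.4 and 8.75 CPM in the knockout. cKO2 came near the WT range, the log2 fold change was -0.66 (edgeR, adjusted p = 0.0248), and the call was lost without WT1 (0.0946), WT2 (0.0851) or cKO3 (0.101).

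Sgce was then set beside the genes of the complex in which its protein works. Of the 9 genes for sarcoglycans, sarcospan, dystroglycan and dystrophin, Sgce included, 6 were tested, of which 4 rose, 1 fell and 1 did not pass. Sgce is 1 of the 4 that rose, and the others were Sgcb, Sgcd and Sspn. Across all tested genes, 22.0% rose and 21.8% fell. Sgcd, delta-sarcoglycan, was at 3.55, 3.58 and 3.34 CPM in WT and at 7.70, 6.21 and 7.72 CPM in the knockout, a log2 fold change of 1.04 (edgeR, adjusted p = 2.09e-05). Sspn, sarcospan, was at 6.09, 6.04 and 5.50 CPM in WT and at 12.3, 13.1 and 12.2 CPM in the knockout, a log2 fold change of 1.09 (edgeR, adjusted p = 5.32e-07). Both changes were close in size to that of Sgce, and no library overlapped. Sgcb, beta-sarcoglycan, rose by a log2 fold change of 0.45 (edgeR, adjusted p = 0.000117). Dmd, dystrophin, fell from 41.7 ± 2.12 to 35.2 ± 1.82 CPM (SD, n = 3 each), a log2 fold change of -0.24 (edgeR, adjusted p = 0.00599), and Dag1, dystroglycan, had a log2 fold change of -0.12 (edgeR, adjusted p = 0.0563). Sgca and Sgcz, the genes for alpha- and zeta-sarcoglycan, had at most 0.236 CPM in any library and were not tested.

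**Figure D4:**
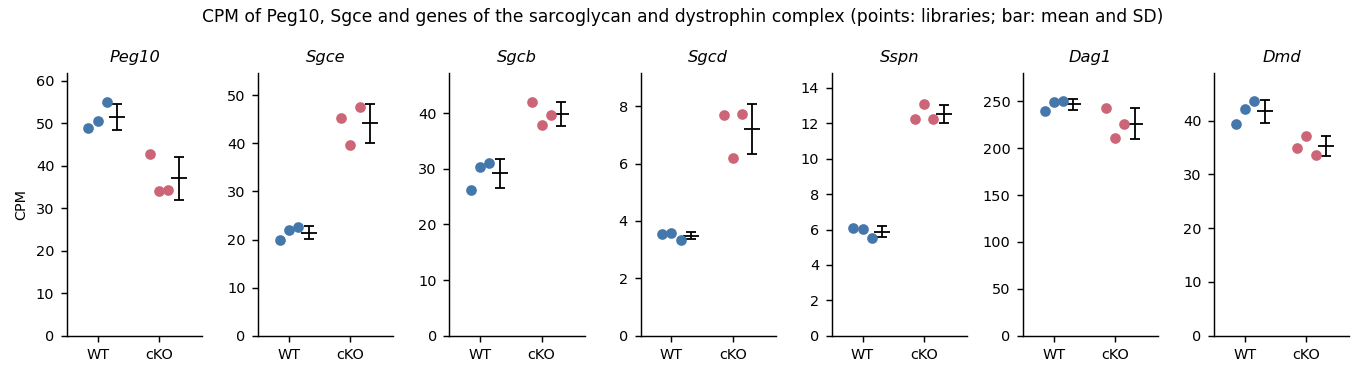
CPM of Peg10, Sgce and the other tested genes of the sarcoglycan and dystrophin complex (y axes from 0), 1 point per library, with the mean and SD of 3 WT and 3 Pbrm1 cKO libraries. Sgce, Sgcb, Sgcd and Sspn stand higher in every knockout library, Peg10 and Dmd stand lower, and Dag1 overlaps.

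Markers of cell types also differed between the genotypes, where 22.0% of all tested genes rose and 21.8% fell. The mesothelial and endothelial lists, in which no marker rose by the test, are given further below. All 9 smooth muscle markers were detected and tested, and of them 5 rose, 1 fell and 3 did not pass, and their summed level was 3475 to 3547 CPM in WT and 4249 to 4740 CPM in the knockout. Of 10 fibroblast markers, 7 rose and 1 fell, with summed levels of 6505 to 7211 CPM and 9723 to 10004.6 CPM, and 4 of 5 pericyte markers rose, from 434 to 469 CPM in WT to 524 to 624 CPM in the knockout. The 8 tested of 10 leukocyte markers rose, from 710.1 to 761 CPM in WT to 1080 to 1171 CPM in the knockout, and 5 of 8 epithelial markers rose, from 920.0 to 1005 CPM to 1043 to 1164 CPM. Smtn (log2 fold change -0.29) was the smooth muscle marker that fell, and Dpt (-0.65) the fibroblast marker. The pericyte marker Cspg4 stood at -0.70 and did not pass the test (edgeR, adjusted p = 0.0623). Its level was 91.3 ± 9.84 CPM in WT and 55.9 ± 15.5 CPM in the knockout (SD, n = 3 each). The summed pericyte level rose through Pdgfrb, at 350 ± 14.3 CPM in WT and 469 ± 44.8 CPM in the knockout (SD, n = 3 each). The part of these shifts in the levels of Sgce, Sgcb, Sgcd and Sspn was not tested.

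Plagl1 and Mest, both paternally expressed, fell by smaller amounts. Plagl1 (chromosome 10, 13060504 to 13131694, plus strand) encodes a zinc finger transcription factor that binds GC-rich sites and is linked to growth arrest. It stood at 27.0, 26.4 and 23.6 CPM in WT and at 20.0, 23.9 and 17.6 CPM in the knockout. cKO2 lay just above WT3, so the ranges overlapped. The log2 fold change was -0.32 with an SE of 0.099 (edgeR, adjusted p = 0.0179), and the call was lost without WT1 (0.0737), WT2 (0.0676), cKO1 (0.0713) or cKO3 (0.0645).

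Mest (chromosome 6, 30723547 to 30748465, plus strand) encodes a protein of the alpha/beta-hydrolase fold that is high in fetal mesoderm. Its level was 8.10, 8.07 and 7.55 CPM in WT and 6.24, 7.27 and 4.50 CPM in the knockout. The groups did not overlap, but cKO2 stood close beneath WT3 and the knockout libraries were widely spread. Mest fell by 0.38 on the log2 scale with an SE of 0.15 (edgeR, adjusted p = 0.0432). This call was lost with DESeq2 (adjusted p = 0.0833) and without WT1 (0.104), WT2 (0.109), WT3 (0.0733), cKO1 (0.0832) or cKO3 (0.202). Mest had 70 to 151 counts per library.

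Mest carries miR-335 in an intron, and its mature sequences are given as the regulatory RNA produced from this locus. They are from RefSeq (GRCm38.p6, plus strand of chromosome 6), with bases 2 to 8 in capitals.
miR-335-5p (chr6:30741314-30741336): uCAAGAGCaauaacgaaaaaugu
miR-335-3p (chr6:30741354-30741375): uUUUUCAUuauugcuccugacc
Neither seed equals a seed of miR-675. The row of the miR-335 precursor held 0 counts in all 6 libraries, so the level of Mest says nothing measured about the microRNA.

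On the opposite strand, Copg2, a gene for a coat protein of transport vesicles, overlaps 912 exon bases of Mest, or 23.1% of its exon length. The reads were counted by strand. Copg2 was at 26.7, 29.0 and 30.4 CPM in WT and at 32.2, 30.4 and 33.6 CPM in the knockout, with a log2 fold change of 0.16, opposite in sign to that of Mest (edgeR, adjusted p = 0.0827), that passed the test only without cKO2 (0.0311).

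Peg3 (chromosome 7, 6703892 to 6730431, minus strand) encodes a large zinc finger protein expressed from the paternal copy, with roles in growth and maternal behaviour. It was at 11.8, 11.3 and 10.9 CPM in WT and at 12.0, 10.8 and 12.5 CPM in the knockout. WT values lay within the knockout range, and the log2 fold change was 0.05 with an SE of 0.098 (edgeR, adjusted p = 0.708). Of all genes tested, 86.8% had a larger change. Usp29, which starts 147 bases from Peg3 on the opposite strand, had 0 to 3 counts per library and was not tested, and Siah1a, whose protein binds that of Peg3, rose by a log2 fold change of 0.29 (edgeR, adjusted p = 0.0105).

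The Peg3 start is shown because its window was the 1 member window with the letters GGGGCCCC, given here as a short form of the site that the Plagl1 protein is known to bind. The letters read the same on both strands, occur 201 bases before the start and are found in 1.08% of all RefSeq windows. The sequence is from RefSeq (GRCm38.p6, minus strand), with CpG in capitals.
Peg3 (chr7:6730370-6730669): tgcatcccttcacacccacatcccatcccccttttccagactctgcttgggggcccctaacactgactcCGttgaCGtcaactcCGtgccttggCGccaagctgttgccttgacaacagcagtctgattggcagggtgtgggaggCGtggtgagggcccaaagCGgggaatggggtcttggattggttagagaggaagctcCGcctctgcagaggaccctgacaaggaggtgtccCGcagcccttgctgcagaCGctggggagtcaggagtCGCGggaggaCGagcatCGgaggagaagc
The letters GCCATNTT of the factor YY1, searched on both strands, were in no member window and in 6.05% of all windows. RefSeq windows were found for 7 of the 10 genes, 11 in all, and not for H19, Peg10 and Sgce. The CpG count of these windows ranged from 1 for the second Meg3 start to 45 for a Grb10 start, and Plagl1 had 26. At least 1 window of each of the 7 genes held more CpG than the median of 7. A match or its absence describes these letters only.

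Ndn (chromosome 7, 62346569 to 62350262, plus strand), a single-exon gene of the Prader-Willi domain, encodes necdin, a MAGE family protein that binds E2F1 and holds cells out of the cycle. It stood at 61.3, 54.6 and 56.2 CPM in WT and at 48.5, 51.1 and 55.0 CPM in the knockout. cKO3 lay just above WT2, so the ranges touched. The log2 fold change was -0.16 with an SE of 0.063 (edgeR, adjusted p = 0.0547), and it passed the threshold with no filter (0.0309) and without WT2 (0.0480) or cKO3 (0.0203).

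In the domain of Ndn, 3 of the 5 tested genes fell, beside 21.8% of all tested genes. Ndn itself and Mkrn3 did not pass the test. Mkrn3 had a log2 fold change of 0.07 (edgeR, adjusted p = 0.871) on 18 to 25 counts per library. Peg12 was at 16.4, 14.9 and 13.8 CPM in WT and at 9.17, 12.5 and 9.01 CPM in the knockout, a log2 fold change of -0.55 (edgeR, adjusted p = 0.00201). Snrpn, a gene for a spliceosome protein, was at 4.61, 4.22 and 4.04 CPM in WT and at 3.54, 2.60 and 2.57 CPM in the knockout, a log2 fold change of -0.56 (edgeR, adjusted p = 0.0143) whose call was lost with DESeq2 (adjusted p = 0.0502) and without WT1 (0.0545) or cKO3 (0.0543). Gm38393 overlaps 27.3% of the exon length of Snrpn on the same strand. Reads lying in both were dropped, so the Snrpn row is a partial count. Peg12 and Snrpn, like Ndn, are read from the paternal copy. Ube3a, a ubiquitin ligase gene of the same domain, fell from 222 ± 7.48 to 184 ± 7.63 CPM (SD, n = 3 each), a log2 fold change of -0.27 (edgeR, adjusted p = 0.000184). Magel2, the gene nearest to Ndn at 30.4 kb between starts, had 0 counts in every library.

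E2f1, the partner of necdin, fell from 22.1, 21.4 and 21.2 CPM in WT to 16.5, 16.7 and 14.7 CPM in the knockout, a log2 fold change of -0.43 (edgeR, adjusted p = 0.000397). All 8 cell cycle genes counted beside it fell, where 21.8% of all tested genes did. Their summed level was 909.9 to 963 CPM in WT and 588 to 599.8 CPM in the knockout. The part of proliferation in the level of E2f1 or of the 10 imprinted genes was not tested. Notch2, a receptor of the Notch family, was at 532, 491 and 470.4 CPM in WT and at 306, 418 and 295 CPM in the knockout, a log2 fold change of -0.55 (edgeR, adjusted p = 0.0409). That call was lost with no filter (adjusted p = 0.112) and when WT1, WT2, WT3, cKO1 or cKO3 was left out. Notch1 had a log2 fold change of 0.08 (edgeR, adjusted p = 0.402). Of the 17 genes for partners of the members' products, 14 were tested, of which 4 rose and 4 fell. These counts stand beside 22.0% and 21.8% of all tested genes.

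**Figure D5:**
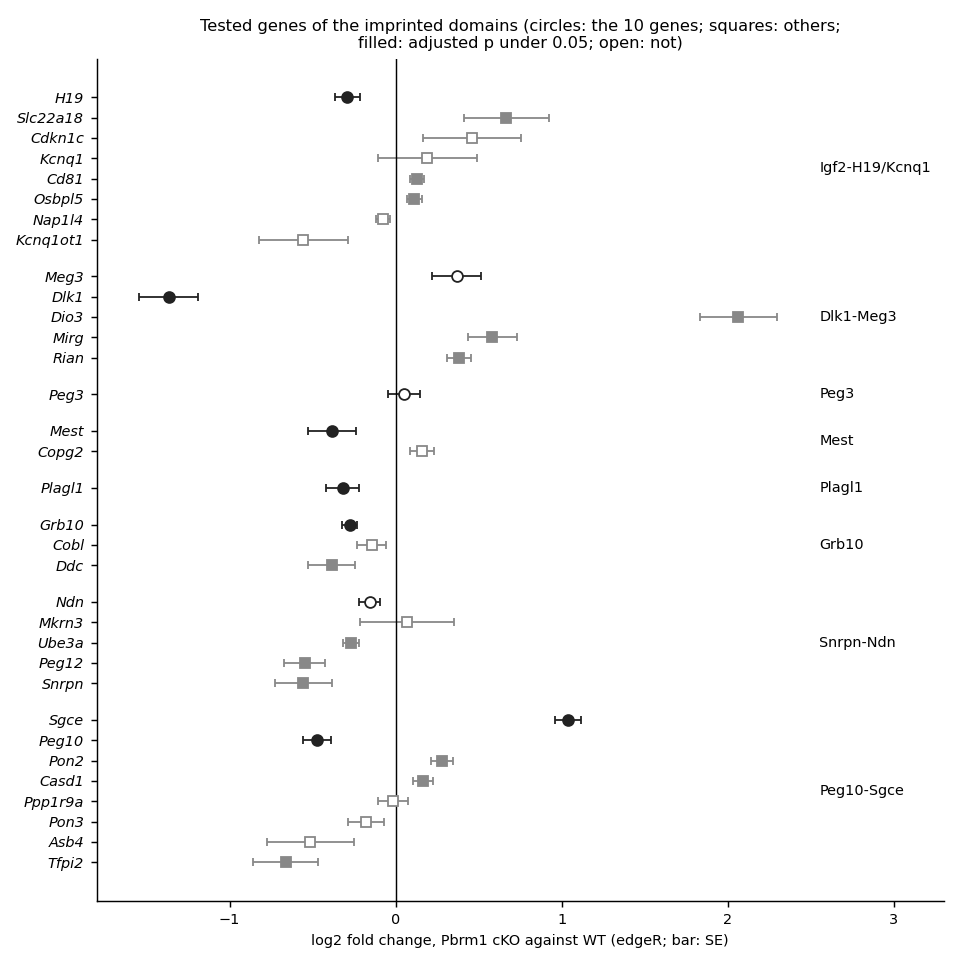
log2 fold change of Pbrm1 cKO against WT by edgeR (x axis, bar: SE) for the tested genes of the imprinted domains, grouped by domain, with the 10 genes as circles and their neighbours as squares, filled where the adjusted p is under 0.05. Dio3 stands furthest to the right at 2.06 and Dlk1 furthest to the left at -1.37 within the same domain, and Sgce and Peg10 lie on opposite sides of 0.

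Over all the domains, 34 further genes were listed and 23 tested, of which 8 rose and 5 fell, and their median log2 fold change was 0.07. This count of 13 was 7 with DESeq2, 6 without WT1, 8 without WT2 and 7 without cKO3. Every domain with at least 5 tested genes, other than that of Ndn, held genes that rose and genes that fell. By parental class, 1 of 7 paternally expressed members rose and 4 fell, and of 3 maternally expressed members none rose and 2 fell. The counts of domains and classes stand beside 22.0% of all tested genes that rose and 21.8% that fell. The median log2 fold changes of the classes were -0.32 and -0.28.

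Among 25 imprinted genes of other loci, 21 were tested, of which 6 rose and 8 fell, with a median log2 fold change of -0.14. Across all tested genes, 22.0% rose and 21.8% fell. Htr2a, a serotonin receptor gene, fell from 35.8, 36.2 and 40.5 CPM in WT to 19.5, 19.6 and 19.5 CPM in the knockout, a log2 fold change of -0.94 (edgeR, adjusted p = 2.97e-08). Peg13, a noncoding RNA, fell by 0.65 on the log2 scale (edgeR, adjusted p = 7.71e-06), and Inpp5f, a phosphoinositide phosphatase gene, rose by a log2 fold change of 0.42 (edgeR, adjusted p = 0.000179). Smaller changes were those of Mcts2 at -0.32, Gatm at -0.28, Commd1 at 0.24, Impact at 0.23 and Gnas at 0.21. Of these 5, the call of Mcts2 was lost with DESeq2 (adjusted p = 0.0688) and without WT2 (0.0668), that of Gatm with WT2 (0.0605), WT3 (0.123) or cKO2 (0.0786) left out, and that of Commd1 without WT1 (0.0652) or cKO3 (0.0924). A further 3 low genes, chosen after their values were seen, fell further than Htr2a, namely Nnat at -1.44, Zdbf2 at -1.24 and Sfmbt2 at -1.11 (edgeR, adjusted p = 2.81e-05, 1.62e-05 and 0.0107). Nnat was at 3.78, 3.26 and 4.04 CPM in WT and at 1.29, 1.59 and 1.16 CPM in the knockout, which is a fall of about the size of that of Dlk1.

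The list of genes that act on imprints and DNA methylation held 12, and all were tested. It joins genes whose products set or keep the marks with Tet1, Tet2 and Tet3, which encode methylcytosine oxidases that help to remove methylation. Of the 12 genes 8 fell and 1 rose, the latter and 1 of the former being Tet genes, with a median log2 fold change of -0.23 and none beyond 1. The shares over all tested genes were 21.8% and 22.0%. Dnmt1, the maintenance DNA methyltransferase, was at 344, 329.9 and 324 CPM in WT and at 256, 294 and 258 CPM in the knockout, a log2 fold change of -0.31 (edgeR, adjusted p = 0.000252). Uhrf1, which guides Dnmt1 to replicated DNA, fell by 0.24 on the log2 scale (edgeR, adjusted p = 0.00419). Dnmt3a fell by 0.24 (edgeR, adjusted p = 0.0149), but not without cKO1 or cKO3, and Tet3 fell by 0.23 (edgeR, adjusted p = 0.0216), but not without WT1, WT2, cKO1 or cKO3. Tet2 rose by a log2 fold change of 0.47 (edgeR, adjusted p = 0.000159). Without cKO1, the number of these genes that passed was 5 in place of 9. The cell cycle genes given above fell in the same libraries, and their part in the level of Dnmt1 and Uhrf1 was not tested.

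Where the knockout libraries differed among themselves, cKO2 was nearest to the WT mean for 5 of the 7 members that passed the test, namely Dlk1, Mest, Plagl1, Grb10 and Sgce, and cKO1 was nearest for H19 and Peg10. How often cKO2 was nearest was not counted over all genes, so whether this is particular to the members is not known. Pbrm1 itself was at 50.7 CPM in cKO2, 43.5 CPM in cKO1 and 42.7 CPM in cKO3. A link between its level and that of the members was not tested. Oocyte and embryo markers, listed because tubes on D2 of pregnancy can hold embryos, summed to between 0.945 and 1.11 CPM in WT and between 0.637 and 1.18 CPM in the knockout, with the zona pellucida genes Zp2 and Zp3 at 0 in every library. Of other cell types that could be present, 3 of 5 mesothelial markers fell, from a summed 199 to 209 CPM in WT to 152 to 153 CPM in the knockout. Of 6 endothelial markers 1 fell, Kdr, from 182 ± 6.61 to 99.4 ± 11.3 CPM (SD, n = 3 each). The other 5 did not pass the test. The summed endothelial level, 329 to 343 CPM in WT and 252 to 259.7 CPM in the knockout, therefore fell through Kdr. The part of mesothelial and endothelial cells in the falls of Dlk1, H19, Grb10, Peg10, Mest and Plagl1 was not tested.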

How the data were processed

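The deposited file was a gene-by-library table of raw counts, with 3 WT and 3 Pbrm1 cKO columns and the exon length of each gene. Per the file headers, exons of the GENCODE M18 annotation were counted with featureCounts 1.6.4 in reverse-stranded mode, which by default drops reads shared by genes or mapped to several places. The submitters' processing notes name cutadapt, HISAT2 and GRCm38.p5. Symbols came from GENCODE M21 and were found for 54079 of 54232 genes (99.7%). No column was without a sample.

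Libraries held 15390818 to 18947947 counts. Reads had no molecular identifiers, and limits from 3 counts cover counting error alone. Pairs of libraries of a genotype differed by more than sampling noise (chi-square per gene 1.31 to 1.60), and all 6 were used. Counts were tested with edgeR 4.0.16 in R 4.3.3 (robust quasi-likelihood F-test, two-sided, TMM normalization, filterByExpr by genotype) and adjusted over 15376 genes, of which 6742 passed 0.05. The SE was the log2 fold change divided by the square root of F, and the test was checked on simulated counts, where the share of false calls exceeded the nominal threshold, so that adjusted p-values near 0.05 are weak. CPM were scaled by TMM, and RPKM divided CPM by the deposited gene length. The alternatives were DESeq2 1.42.0, limma-voom (limma 3.58.1), library-size or RLE scaling, no filter, at least 10 counts in every library, a replicate block and leaving out each library.

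The members and gene lists were chosen with earlier results of these data known. Besides the members, genes were named by rule, as the 10 tested domain genes with the largest changes that passed and the nearest neighbours, up to 8 other imprinted genes of at least 5 CPM, and up to 5 partners and 5 genes that act on imprints. Receptors, substrates, Igf1, Siah1a, Notch1, Dmd, Dag1, Sgca, Sgcz, Rtl1, Mkrn3, Magel2 and single cell type markers were named as completing a group, after their values were seen. Some items are not reported here. Sequences came from RefSeq (GRCm38.p6).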

Additional observations from a re-analysis of the deposited data

How the results depend on the processing

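Directions of all 10 members were kept in all 13 alternatives to each, and H19, Dlk1, Grb10, Peg10 and Sgce passed the test in all of them. Meg3 had a log2 fold change of 0.38 with library-size scaling alone, 0.36 with no filter and 0.37 with the replicate block, all past the threshold, and 0.24 to 0.53 when 1 library was left out. Mest was at -0.39 with DESeq2, not past it, and from -0.54 to -0.23 with 1 library left out. Plagl1 ranged from -0.44 to -0.22 and Ndn from -0.20 to -0.11 in the same way, and Ndn was at -0.17 with no filter, past it. The causes of these differences were not tested, and leaving out a library changes both the number of libraries and their spread. Requiring an absolute log2 fold change above 1 left 996 of all genes and 2 of the members. Leaving out 1 library gave 5570 to 7096 genes in all, 5 to 7 members, 6 to 13 domain genes (7 with DESeq2) and 5 to 9 genes that act on imprints. By CPM without length, Grb10 ranked 1, H19 2, Peg3 7, Mest 8 and Dlk1 9 among the 10 genes in WT. For the 34 other named genes, 397 of 441 values kept their side of the threshold, 43 lost it, 1 gained it and none reversed. Under the other scalings the median change over all genes stayed within 0.02 of 0 (log2). The replicate numbers did not pair libraries (r of same-numbered deviations -0.0364, 0.0532 and 0.127). With the replicate block, 6968 genes passed, of which 6667 passed without it. Dlk1, Meg3, Mest and Dio3 rest on few counts, and depth limits what can be said of Rtl1 and Usp29. Igf2 is limited by depth and also by the reads dropped where its exons overlap Gm49394.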
